A study of Mus musculus with 6 samples.

Results

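Kinesins are motor proteins that walk along microtubules, and this is an account of their genes in mouse spinal cord after a crush injury. The members were all genes whose name in the files starts with Kif and a digit, together with Kifc1 to Kifc3 and the kinesin light chain genes Klc1 to Klc4. They came to 45 of the 36629 genes in the files. By the known role of their products they were sorted into 12 motors of dividing cells, 14 motors of cargo transport, 4 light chains, 6 motors tied to the cilium and 9 others. The sorting followed textbook roles, and was made with earlier results of these data known.

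Injured and sham-operated C57/BL6 mice, aged 3 to 5 weeks at the start, were compared, with 3 libraries in each group. In the injured group (SCI, spinal cord injury) the cord was exposed by laminectomy in the thoracic spine and then squeezed with a vascular clip of 60 g force for 5 seconds. In the sham group the cord was exposed in the same way and not squeezed. Cord from segments T8 to T12 was collected in both groups 3 days after surgery, so the whole piece, with every cell type in it, was measured by RNA-seq of polyadenylated RNA. The labels do not say whether each library came from a separate animal, and p-values measure the spread between these libraries.

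All motors of the superfamily share a head that binds microtubules and burns ATP, and differ in what the rest of the protein holds. In dividing cells, kinesins build the spindle, carry and align chromosomes and help the daughter cells to part, and their genes are switched on mainly late in the cell cycle. In neurons, which do not divide, kinesins carry vesicles, mitochondria and cytoskeletal proteins from the cell body down the axon. The light chains bind kinesin heavy chains to some of their cargo. A piece of cord holds the cell bodies of motor neurons and interneurons and long axon tracts, so transport kinesins are abundant there.

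Values are the FPKM deposited by the authors, that is fragments counted relative to gene length and library size, so levels are per length and can be set beside each other between genes. The depth behind them is unknown. FPKM summed to 716215 to 734791 per library. On log2(FPKM + 1) the libraries correlated with r of 0.971 to 0.985 within SCI, 0.987 within sham and 0.839 to 0.907 between the groups. The 4 haemoglobin genes took 0.656%, 6.16% and 0.211% of the FPKM in SCI replicates 1, 2 and 3, against 0.109% to 0.126% in sham. Markers of sensory ganglion neurons and of skeletal muscle stood apart in SCI replicate 3. The muscle genes summed to 35.6, 8.91 and 354 FPKM in SCI replicates 1, 2 and 3, against 26.0, 13.9 and 86.8 FPKM in sham replicates 1, 2 and 3. Scn10a, the sodium channel of pain-sensing ganglion neurons, was at 6.6 FPKM there and listed at 0 in the other 5 libraries. Avil was at 17.3 FPKM there, against 0.42 and 0.26 in the other SCI libraries and 0.15 to 0.50 in sham. Genes were tested with limma when 3 or more of the 6 libraries reached 1 FPKM, and an adjusted p under 0.05 (Benjamini-Hochberg over the 17435 genes tested) counted as a call. In that fit 57.5% of all genes were called, 26.7% higher and 30.8% lower in SCI, with a median log2 change of −0.076. Of the 45 members, 40 were tested.

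Of the genes that mark the main classes, Kif11 and Kif20a, for division, were under 1 FPKM in every sham library and over 9 FPKM in every SCI library. Kif5a and Kif1a, for axonal transport, were over 100 FPKM in all 6 libraries. The plot of levels by library shows both sets, together with the smaller classes.

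**Figure D1:**
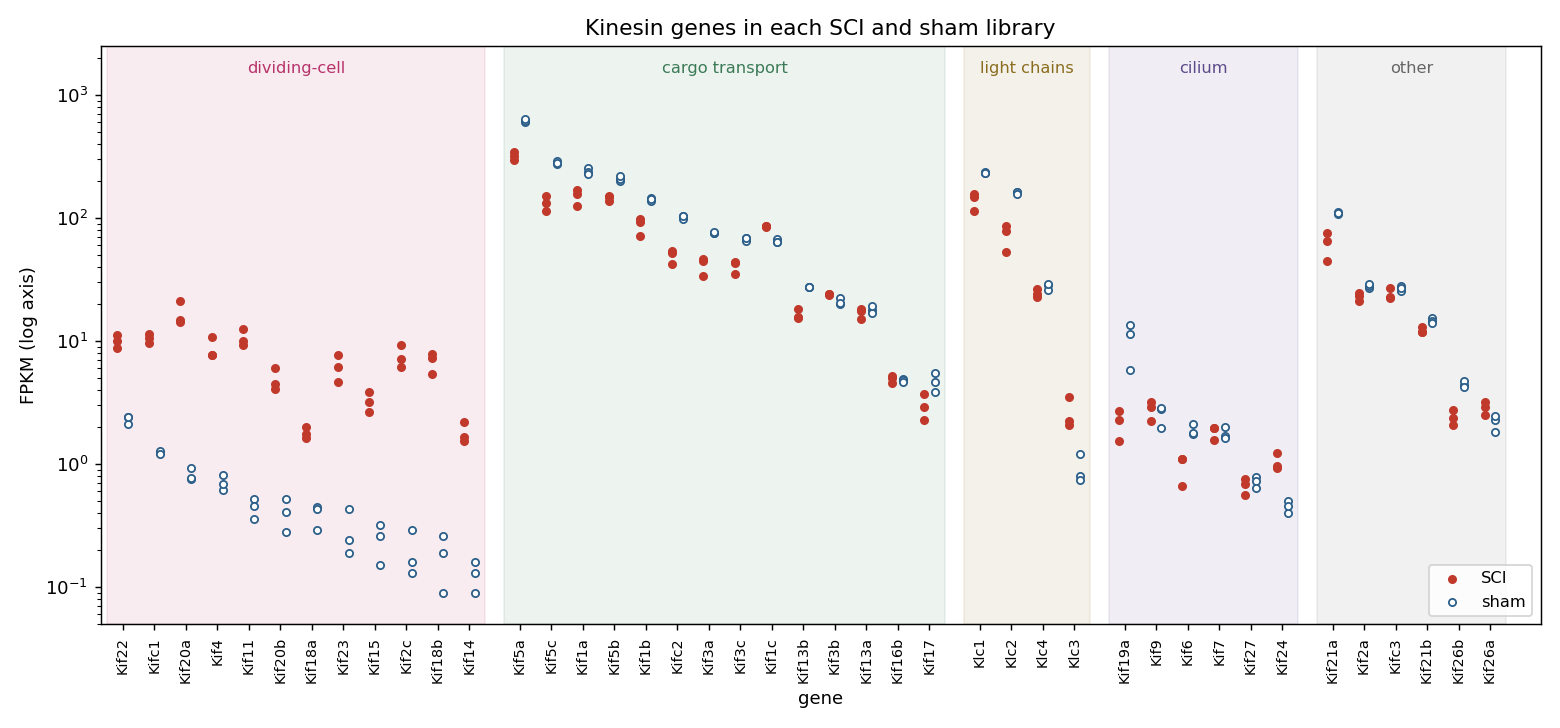
FPKM (log axis) of the kinesin genes with a value above 0 in all 6 libraries, by role, with a point per library, filled for SCI and open for sham, ordered within a class by the sham mean. All 12 dividing-cell genes lie higher in SCI, and Kif5a, the most abundant, lies at 294 to 344 FPKM in SCI and 607 to 639 FPKM in sham.

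Kinesins of dividing cells were low in the sham cord and all 12 were higher in the injured cord. Their FPKM added up to 84.7, 106 and 75.8 in SCI replicates 1, 2 and 3, against 7.32, 7.06 and 7.63 in sham replicates 1, 2 and 3, which is 12.1-fold higher in SCI. Every SCI library lay above every sham library for each of the 12, which was so for 30.7% of all genes tested. Of the 12, 10 passed the filter through the SCI libraries alone, so a difference was built into their entry and their calls are a description of the values. With no filter on low values all 12 members were again called higher, where 14.2% of the 33526 genes in that fit were.

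Motors that build the bipolar spindle were among them. Kif11, the kinesin-5 that slides spindle microtubules apart, was at 9.93, 12.53 and 9.25 FPKM in SCI, against 0.52, 0.36 and 0.46 FPKM in sham. It had a log2 change of 2.99 (SE 0.14, limma adjusted p = 1.3e-05, and 0.00016 with no filter). Kif11 passed the filter through the SCI libraries alone, so its call is a description. Its lowest SCI library was 17.8 times its highest sham library. Kif15, a kinesin-12 that can share the work of Kif11, was at 3.19, 3.87 and 2.64 FPKM in SCI, against 0.26, 0.15 and 0.32 in sham. Kifc1, a kinesin-14 that walks to the minus end and gathers spindle poles, was at 10.60, 11.32 and 9.61 FPKM in SCI, against 1.23, 1.27 and 1.21 in sham. The lowest SCI library of Kifc1 was 7.57 times its highest sham library. Reads of Kifc1 may be shared with Kifc5b, a close copy that was at 3.22 ± 0.217 FPKM in SCI and 1.57 ± 0.388 FPKM in sham (SD, n = 3 each).

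Motors of chromosomes and of microtubule ends followed. Kif22 (Kid), a kinesin-10 that pushes chromosome arms away from the poles, was at 9.98, 11.19 and 8.70 FPKM in SCI, against 2.39, 2.12 and 2.41 in sham. With Kifc1 it was the only member of the class above 1 FPKM in every sham library. Kif4, a kinesin-4 that binds chromatin and the central spindle, was at 7.64, 10.78 and 7.75 FPKM in SCI, against 0.61, 0.82 and 0.69 in sham. Kif2c (MCAK), a kinesin-13 that takes microtubules apart at centromeres, was at 7.12, 9.29 and 6.16 FPKM in SCI, against 0.29, 0.16 and 0.13 in sham. Its log2 change was 2.82 (SE 0.16, limma adjusted p = 2.7e-05, and 0.00029 with no filter), and the ratio of group means was 38.9. Kif2c too passed the filter through the SCI libraries alone. The kinesin-8 genes differed in size of change. Kif18b, which limits the length of astral microtubules, was at 7.29, 7.85 and 5.41 FPKM in SCI, against 0.26, 0.09 and 0.19 in sham. Kif18a, which damps the swinging of chromosomes at the metaphase plate, was at 1.63, 1.99 and 1.75 FPKM in SCI, against 0.45, 0.43 and 0.29 in sham. Their log2 changes were 2.72 (95% interval 2.34 to 3.10) and 1.01 (0.66 to 1.35). Both genes passed the filter through the SCI libraries alone, so these intervals are a description. The pseudocount of 1 also limits the change of a gene as low as Kif18a. With a pseudocount of 0.1 the log2 changes were 4.66 (SE 0.32) and 1.96 (SE 0.31). The genes were not tested against each other.

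Motors of cytokinesis, the parting of the daughter cells, were higher as well. Kif20a (MKLP2), a kinesin-6 that brings the Aurora B complex to the central spindle, was at 14.94, 21.19 and 14.21 FPKM in SCI, against 0.75, 0.77 and 0.93 in sham. Its log2 change was 3.27 (SE 0.16, limma adjusted p = 1.5e-05, and 0.00017 with no filter). This was the highest of the 40 tested members and stood at rank 127 of 17435 genes. Like Kif11 and Kif2c, Kif20a passed the filter through the SCI libraries alone. Kif23 (MKLP1), a kinesin-6 that forms the centralspindlin complex with Racgap1, was at 6.16, 7.74 and 4.64 FPKM in SCI, against 0.19, 0.24 and 0.43 in sham. Kif20b, the remaining kinesin-6, was at 4.51, 6.03 and 4.09 FPKM in SCI, against 0.28, 0.52 and 0.41 in sham. The least abundant of the class in sham was Kif14, a kinesin-3 that works with citron kinase at the midbody, at 1.67, 2.18 and 1.54 FPKM in SCI, against 0.09, 0.13 and 0.16 in sham. The scale of log2(FPKM + 1) understates changes of genes this low. With a pseudocount of 0.1 in place of 1 the log2 changes were 3.06 for Kif14, 4.18 for Kif20a, 4.66 for Kif18b and 4.72 for Kif2c.

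Genes that work beside these motors in division were described from a list. Of 24, 23 were called higher and none lower, where 26.7% of all genes tested were called higher, with a median log2 change of 2.98. Top2a, which untangles chromosomes, was at 4.49 and Mki67, which coats them in mitosis, at 4.37. These genes and others of the list were under 1 FPKM in every sham library. They passed the filter through the SCI libraries alone, so a difference was built into their entry and their calls are a description. With no filter on low values 23 were again called higher, where 14.2% of the 33526 genes in that fit were. Cenpe, the kinesin-7 of kinetochores whose name falls outside the rule, was at 6.31, 8.87 and 5.25 FPKM in SCI, against 0.27, 0.44 and 0.62 in sham. Racgap1, the partner of Kif23, was at 18.8, 19.6 and 17.7 FPKM in SCI, against 5.58 to 6.55 in sham. Anln, an actin-binding protein of the cleavage furrow, did not pass, at 38.5, 26.6 and 33.3 FPKM in SCI, against 33.0, 37.0 and 40.0 in sham.

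SCI replicate 2 had the highest value of the 6 libraries for each of the 12 dividing-cell kinesins. How many of all genes had their highest value in SCI replicate 2 was not counted. That library also held the most haemoglobin and the highest summed level of neutrophil genes, 614 FPKM, against 259 and 141 FPKM in SCI replicates 1 and 3 and 17.6 to 42.8 FPKM in sham. Macrophage and microglia genes were highest there too (2300 FPKM, against 1430 and 1940 in SCI replicates 1 and 3). Endothelial and pericyte genes were not (317 FPKM, against 326 and 301). Without SCI replicate 2, all 12 stayed called, with log2 changes of 0.95 to 3.10. SCI replicate 3 had the lowest erythroid total of the injured libraries. It was 1530 FPKM, against 4720 and 45100 FPKM in SCI replicates 1 and 2 and 805 to 929 FPKM in sham. That library also had the lowest dividing-kinesin total of the injured libraries. This total was 75.8 FPKM, against 84.7 and 106 FPKM in SCI replicates 1 and 2 and 7.06 to 7.63 FPKM in sham. A link between the erythroid and kinesin totals was not tested. Which cells made these transcripts was not measured. Of all genes tested, 26.7% were called higher, and the marker lists are read against that share. Microglia and macrophage genes had 9 of 9 members called higher, endothelial and pericyte genes 5 of 6, neutrophil genes 4 of 4 tested, astrocyte genes 3 of 6 (with the other 3 lower) and oligodendrocyte precursor genes 2 of 5, a share near that of all genes. In a bulk piece, more cells of a type and more RNA per cell cannot be told apart.

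Promoters of the dividing-cell kinesins were read because genes of late cell cycle are known to carry a short element close to their start, the cell cycle genes homology region (CHR), often with CCAAT boxes bound by NF-Y. The promoters came from RefSeq on GRCm38.p6, where 35 of the 45 members had an entry, 11 of the 12 dividing-cell genes among them. Kif20a was the one without. The 12 transport promoters came from 10 of 14 genes, because Kif1a and Kif1b were each counted at more than 1 start. Kif5a, Kif5b, Kif13b and Kifc2 had no entry. CHR was searched as TTTGAA or TTCGAA and the box as CCAAT, each on both strands. In the 250 bases before the start, 5 of 11 dividing-cell promoters (45.5%) held a CHR match, against 1 of 12 transport promoters (8.33%) and 17.1% of all 32851 promoters. With the 50 bases after the start added, which was chosen after the data were seen, 10 of 11 (90.9%) did, against 1 of 12 transport promoters (8.33%) and 19.2% of all promoters. A CCAAT box was found before the start in 7 of 11 (63.6%), against 4 of 12 (33.3%) and 33.8% of all promoters. The transport match to CHR lay at a start of Kif1a that is 19367 bases from the gene start in the files. The shares are descriptions, and a match is not a proven site.

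The CHR matches nearest the start are shown with the bases around them because they lie close to the start in most of these genes. Each line is read 5′ to 3′ on the gene's strand, with the match in capitals, where TTCAAA is TTTGAA on the other strand.
Kif11 (chr19:37376351-37376380, plus strand): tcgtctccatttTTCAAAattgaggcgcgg
Kif15 (chr9:122951050-122951079, plus strand): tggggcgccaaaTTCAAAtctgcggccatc
Kif22 (chr7:127042420-127042449, minus strand): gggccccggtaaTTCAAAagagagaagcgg
Kifc1 (chr17:33890615-33890644, minus strand): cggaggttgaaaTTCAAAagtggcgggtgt
Kif18b (chr11:102925104-102925133, minus strand): cggaccggctagTTTGAAcgcgccgcgccg
Kif20b (chr19:34922353-34922382, plus strand): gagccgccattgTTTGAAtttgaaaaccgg
Kif23 (chr9:61946780-61946809, minus strand): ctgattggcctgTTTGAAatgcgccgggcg
Kif4 (chrX:100626072-100626101, plus strand): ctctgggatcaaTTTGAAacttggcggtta
In Kif11 and Kif15 the match began 19 bases before the start and in Kif22 it began 17 before. In Kifc1, Kif23, Kif18b, Kif20b and Kif4 it began at bases 2, 3, 4, 8 and 20 of the transcript. The matches of Kif2c and Kif14 lay farther off, 103 and 228 bases before a RefSeq start that is 3867 and 1505 bases from the gene start in the files. Kif18a had none. Of the 11 promoters, 8 had a RefSeq start within 100 bases of the gene start in the files. That of Kif4, at 328 bases, lay outside this limit, as did those of Kif2c and Kif14.

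The promoters of Kif11, Kif18b and Kif5c are shown as examples over the 250 bases before the start, with CHR and CCAAT matches in capitals. They do not stand for their classes. In this window Kif18a and Kif20b, of dividing cells, had no match of either kind. Kif1b, Kif3a and Kif3b, of transport, had CCAAT boxes. Kif11 has this window at chr19:37376132-37376381 on the plus strand, with a CCAAT box, read on the other strand, 45 bases before the start. Kif5c, a transport kinesin that was lower in SCI, lies at chr2:49619036-49619285 on the plus strand and has no match of either kind. Kif18b lies at chr11:102925125-102925374 on the minus strand and has a pair of CCAAT boxes 53 and 30 bases before the start.
Kif11: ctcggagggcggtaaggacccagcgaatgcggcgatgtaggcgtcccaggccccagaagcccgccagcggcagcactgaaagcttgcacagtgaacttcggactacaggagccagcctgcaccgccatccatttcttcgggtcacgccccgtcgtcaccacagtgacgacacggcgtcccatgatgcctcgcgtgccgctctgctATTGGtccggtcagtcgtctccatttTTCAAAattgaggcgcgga
Kif18b: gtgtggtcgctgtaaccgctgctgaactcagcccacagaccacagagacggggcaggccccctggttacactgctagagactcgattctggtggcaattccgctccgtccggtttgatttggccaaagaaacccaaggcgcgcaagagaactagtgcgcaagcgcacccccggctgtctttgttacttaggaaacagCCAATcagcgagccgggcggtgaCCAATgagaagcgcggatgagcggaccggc
Kif5c: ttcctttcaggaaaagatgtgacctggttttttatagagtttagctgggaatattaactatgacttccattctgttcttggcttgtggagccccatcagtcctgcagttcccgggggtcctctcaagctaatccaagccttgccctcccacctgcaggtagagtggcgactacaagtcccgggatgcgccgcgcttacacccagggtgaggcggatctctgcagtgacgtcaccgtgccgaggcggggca
In these windows the boxes lie within 60 bases of the start in both dividing-cell genes, as do the nearest ones in Kif22 (54 before) and Kifc1 (45 before). Those of Kif23 (7 before) and Kif4 (5 before) do so too. The box of Kif14 lies 92 bases before the start, and Kif15, Kif18a, Kif20b and Kif2c have none. Of the transport genes, Kif3a has a box 18 bases before the start, and those of Kif3b and Kif1b lie more than 60 bases before.

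**Figure D2:**
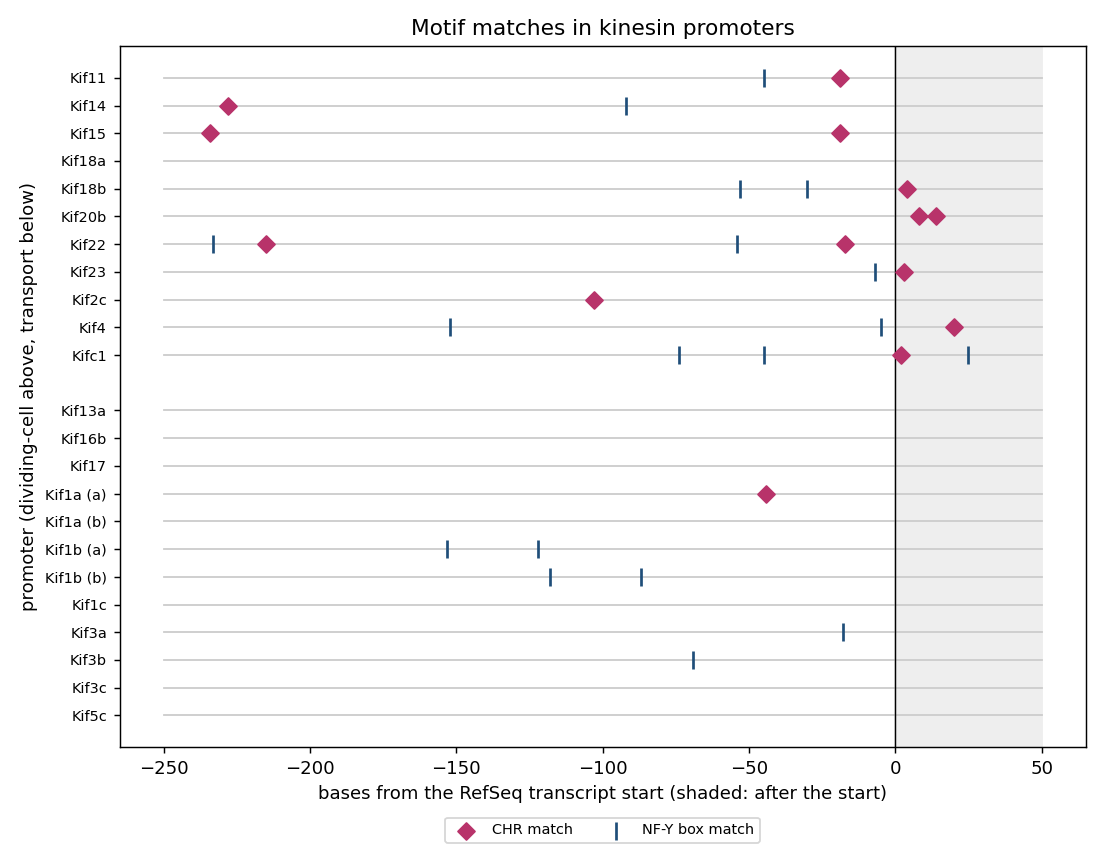
Position of CHR matches (diamonds) and NF-Y boxes (bars) from 250 bases before to 50 bases after the RefSeq start of 11 dividing-cell and 12 transport promoters (a and b are 2 starts of 1 gene). Matches to CHR are in 10 of the 11 dividing-cell promoters and 1 of the 12 transport promoters, which come from 10 genes.

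Kinesins of cargo transport were mostly lower in the injured cord. Of 14 members, all tested, 10 were called lower, Kif1c was called higher and 3 did not pass, with a median log2 change of −0.69. Of all genes tested, 30.8% were called lower. In those 10 every SCI library lay below every sham library, and this was so for 36.9% of all genes. The FPKM of all 14 added up to 1130, 1010 and 1200 in SCI, against 1860, 1860 and 1900 in sham.

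Kinesin-1 heavy chains, which carry mitochondria, vesicles and neurofilament proteins along axons, were the most abundant. Kif5a was at 319.84, 293.83 and 344.13 FPKM in SCI, against 606.88, 609.73 and 638.52 in sham, and was first of all members in both groups. Kif5c was at 132.98, 114.00 and 150.95 FPKM in SCI, against 273.82, 291.25 and 278.39 in sham. Kif5a and Kif5c are the neuronal forms, and both were called lower, with log2 changes of −0.95 (95% interval −1.15 to −0.75, limma adjusted p = 0.00015) and −1.09 (−1.34 to −0.83, adjusted p = 0.00024). Kif5b, the form used by most cell types, was at 137.83, 151.32 and 146.69 FPKM in SCI, against 200.18, 205.37 and 220.66 in sham. Its log2 change was −0.52 (−0.70 to −0.34, limma adjusted p = 0.0012), an interval that did not meet those of Kif5a and Kif5c. In all 3 genes every SCI library lay below every sham library. Of the kinesin-1 heavy chain FPKM, Kif5b made up 23.3%, 27.1% and 22.9% in SCI, against 18.5%, 18.6% and 19.4% in sham, and Kif5a 54.2%, 52.5% and 53.6% in SCI, against 56.1%, 55.1% and 56.1% in sham.

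Ratios between related chains do not depend on how a library was scaled. The Kif5a/Kif5b ratio was 2.32, 1.94 and 2.35 in SCI, against 3.03, 2.97 and 2.89 in sham. With 3 libraries against 3, the exact two-sided permutation p cannot go below 0.10, and it was 0.10 for this ratio. The Kif5a/Kif5c ratio was 2.41, 2.58 and 2.28 in SCI, against 2.22, 2.09 and 2.29 in sham, and the groups overlapped (exact p = 0.20). After adjustment over the 5 ratios compared, the lowest p was 0.167, so none of these differences passed.

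**Figure D3:**
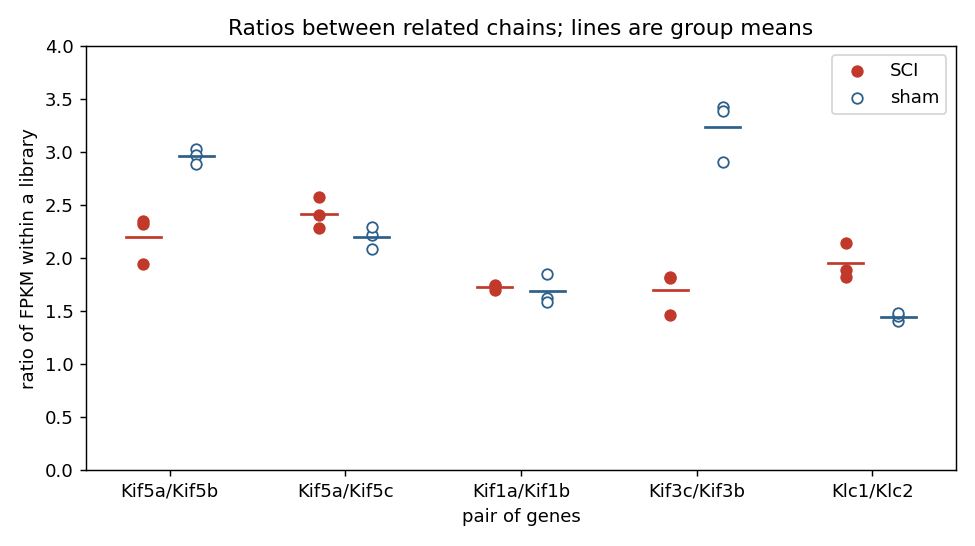
Ratio of FPKM between related kinesin genes in each library, filled for SCI and open for sham, with lines at the group means. Kif5a/Kif5b and Kif3c/Kif3b are lower and Klc1/Klc2 higher in every SCI library than in every sham library.

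Among kinesin-3 motors the members went apart. Kif1a, which carries precursors of synaptic vesicles, was at 156.60, 124.92 and 169.18 FPKM in SCI, against 252.87, 235.92 and 228.07 in sham (log2 change −0.68, SE 0.12, limma adjusted p = 0.0027). Kif1b, whose isoforms carry mitochondria and synaptic vesicle precursors, was at 92.02, 71.46 and 97.45 FPKM in SCI, against 136.75, 145.74 and 143.49 in sham (log2 change −0.71, SE 0.12, adjusted p = 0.0022). Their ratio hardly moved, with a mean of 1.73 ± 0.024 in SCI and 1.69 ± 0.142 in sham (SD, n = 3 each; exact permutation p = 0.60). Kif1c, a broadly expressed form that carries vesicles in many cell types, was called higher, at 85.59, 85.32 and 83.97 FPKM in SCI, against 67.14, 64.25 and 63.54 in sham. Its log2 change was 0.38 (95% interval 0.23 to 0.53, adjusted p = 0.0022), and the group ranges did not overlap. Kif13b, which carries membrane and signalling proteins, was at 15.44, 15.67 and 18.17 FPKM in SCI, against 27.34, 27.54 and 27.52 in sham (log2 change −0.71, SE 0.09, adjusted p = 0.00053). Kif13a, a motor of endosomes, did not pass, at 18.32, 15.20 and 17.41 FPKM in SCI, against 17.75, 16.95 and 19.17 in sham (log2 change −0.08, and 0.01 under median-ratio scaling). Kif16b, also a motor of endosomes, did not pass either, at 4.56, 5.24 and 5.03 FPKM in SCI, against 4.92, 4.83 and 4.66 in sham (log2 change 0.03, and −0.08 under quantile normalization).

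Kinesin-2 motors work as pairs of unlike chains, in which Kif3a joins Kif3b or Kif3c. Kif3a was at 44.58, 33.71 and 46.43 FPKM in SCI, against 75.98, 74.79 and 76.49 in sham (log2 change −0.86, SE 0.12, limma adjusted p = 0.0011). Kif3c, the partner enriched in neurons, was at 42.72, 34.82 and 44.02 FPKM in SCI, against 68.70, 64.61 and 68.50 in sham (log2 change −0.72, SE 0.10, adjusted p = 0.0010). Kif3b, the partner used more widely and in cilia, was at 23.58, 23.91 and 24.19 FPKM in SCI, against 20.09, 22.20 and 20.21 in sham. Every SCI value of Kif3b lay above every sham value, but the log2 change of 0.19 (95% interval 0.01 to 0.37) did not pass (adjusted p = 0.063). Under median-ratio scaling it did, with a log2 change of 0.28 (adjusted p = 0.022). The Kif3c/Kif3b ratio was 1.81, 1.46 and 1.82 in SCI, against 3.42, 2.91 and 3.39 in sham (exact permutation p = 0.10, the smallest possible). Kifap3, the adaptor that joins these pairs to cargo, was at 81.1, 54.3 and 91.0 FPKM in SCI, against 145, 144 and 146 in sham. Kif17, a kinesin-2 of dendrites, was at 3.72, 2.28 and 2.89 FPKM in SCI, against 4.67, 3.82 and 5.52 in sham. Its call (log2 change −0.52, adjusted p = 0.036) was the least secure of the class and ended without SCI replicate 2 or 3, without sham replicate 1 or 3, or with no filter (adjusted p of 0.076 to 0.12). Its gene overlaps Sh2d5 on the same strand, at a mean of 17.1 FPKM in SCI and 22.9 FPKM in sham, so reads may be shared.

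Kifc2, a kinesin-14 known from mouse brain that moves cargo toward the minus end, was at 53.61, 42.40 and 52.11 FPKM in SCI, against 104.59, 97.15 and 104.36 in sham. With a log2 change of −1.04 (SE 0.10, limma adjusted p = 0.00023) it stood next to Kif5c and Kif5a as one of the most lowered motors of the class. Adaptors and other motors of axonal transport were described from a list of 22. Of these, 14 were called lower and none higher, where 30.8% of all genes tested were called lower, with a median log2 change of −0.53. Dync1i1, an intermediate chain of dynein found mainly in neurons, changed most, at 41.6, 22.8 and 51.2 FPKM in SCI, against 102, 102 and 93.7 in sham. Hap1, an adaptor of vesicles, was at 84.7, 47.0 and 76.6 FPKM in SCI, against 156, 114 and 144 in sham. Arl8a, a small GTPase of lysosome transport, did not pass, at 147, 126 and 148 FPKM in SCI, against 133, 145 and 132 in sham, and neither did Bicd2, a dynein adaptor (log2 change −0.09).

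Light chains of kinesin-1 did not move as a block. Of 4 tested, 2 were called lower and 1 higher, where 57.5% of all genes tested were called. Klc1, the form most abundant in the cord, was at 146.80, 113.43 and 156.38 FPKM in SCI, against 230.42, 234.08 and 231.24 in sham (log2 change −0.75, SE 0.12, limma adjusted p = 0.0019). Klc2 was at 77.62, 53.11 and 86.08 FPKM in SCI, against 163.86, 161.77 and 156.73 in sham (log2 change −1.17, SE 0.17, adjusted p = 0.0011). The Klc1/Klc2 ratio was 1.89, 2.14 and 1.82 in SCI, against 1.41, 1.45 and 1.48 in sham (exact permutation p = 0.10, the smallest possible). Klc4 did not pass, at 22.57, 24.01 and 26.64 FPKM in SCI, against 28.27, 26.02 and 29.32 in sham, with a log2 change of −0.19 (95% interval −0.40 to 0.03). Klc3 was called higher from a low level, at 3.53, 2.25 and 2.06 FPKM in SCI, against 0.80, 0.74 and 1.21 in sham (log2 change 0.90, SE 0.19, adjusted p = 0.0063). Klc3 overlaps Ercc2 on the other strand, at a mean of 12.3 FPKM in SCI and 13.1 FPKM in sham. The strand setting of the counting is not given in the sources used here, so reads of the pair may be mixed.

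**Figure D4:**
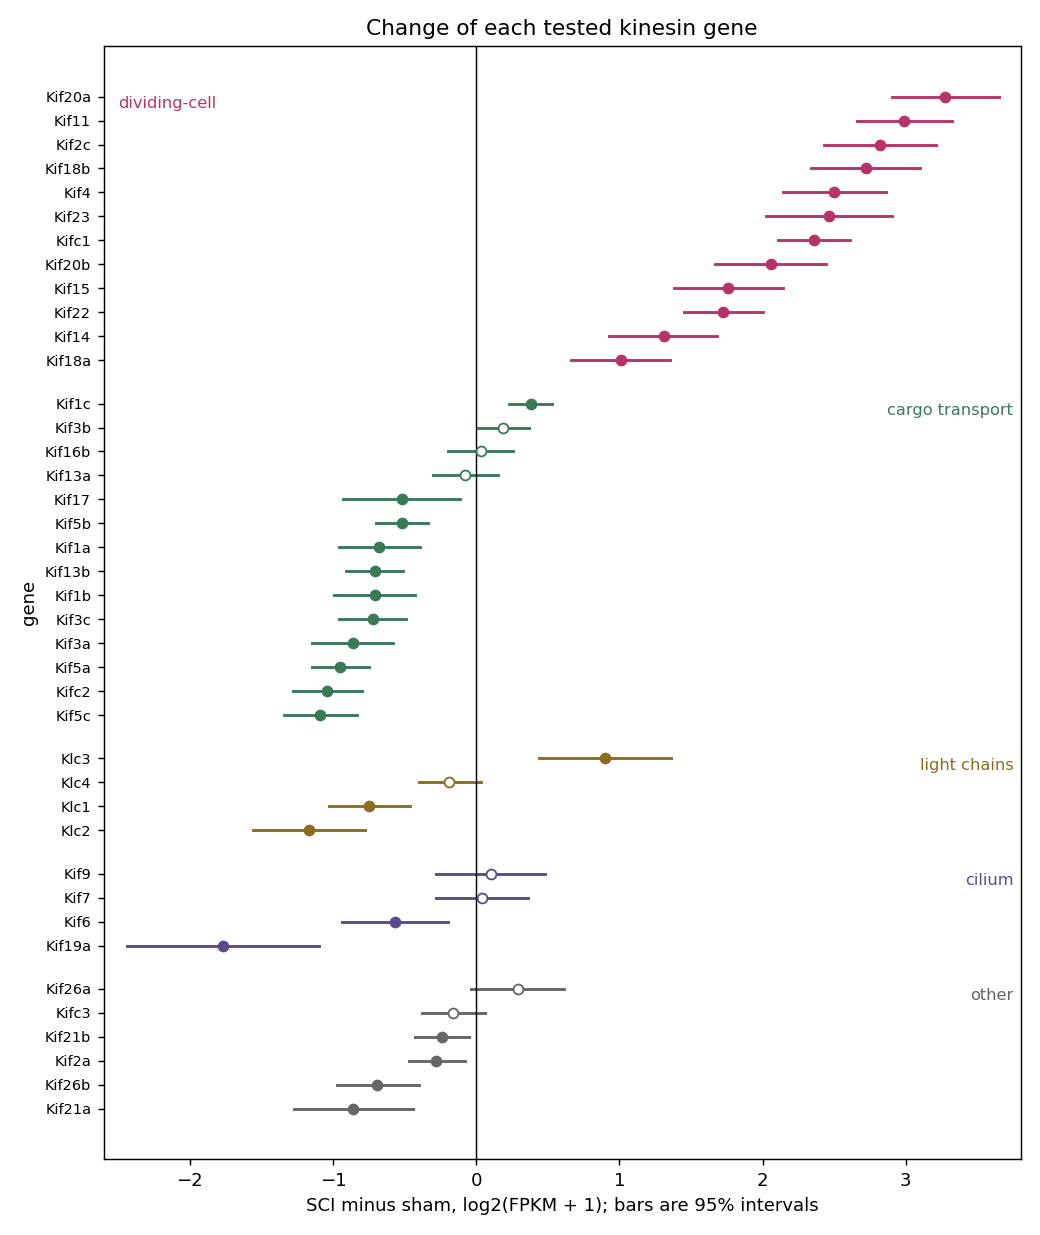
Log2 change (SCI minus sham on log2(FPKM + 1)) of the 40 tested kinesin genes by role, with 95% intervals from limma, filled where called and open where not. The 12 dividing-cell genes run from 1.01 to 3.27, and the 14 transport genes from −1.09 to 0.38.

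Transport kinesins moved alongside markers of neurons and of other cells in the same pieces. Neuron genes had 11 of 12 members called lower (median log2 change −1.16), and their summed level was 2260, 1640 and 2820 FPKM in SCI, against 5220, 6120 and 5280 in sham. Motor neuron genes had 5 of 6 called lower and oligodendrocyte genes 5 of 6, where 30.8% of all genes tested were called lower. As a ratio of group means, the summed level in SCI was 0.405 of sham for the neuron list and 0.595 for the transport kinesins. Of the 14 transport members, 9 had their lowest injured value in SCI replicate 2. So had all 12 neuron genes, all 6 oligodendrocyte genes and 5 of 6 motor neuron genes. The share over all genes was not counted. Without SCI replicate 2, 9 of 14 were called lower, with a median log2 change of −0.56. Sensory ganglion genes summed to 31.9, 32.4 and 120 FPKM in SCI, against 57.7, 67.3 and 54.8 in sham, with their excess, like that of the muscle genes, in SCI replicate 3. Without SCI replicate 3, 9 of 14 were called lower, with a median of −0.77. In a bulk piece, fewer neurons and less RNA per neuron cannot be told apart, and the part of these markers in the result was not tested.

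**Figure D5:**
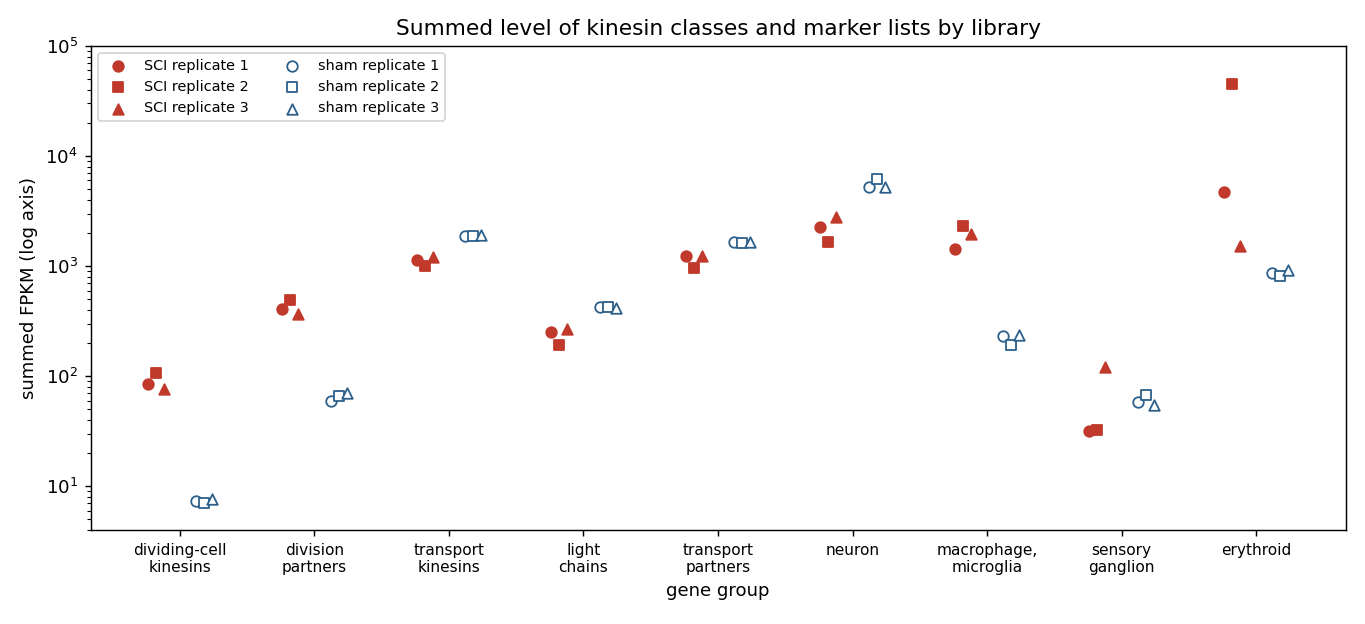
Summed FPKM (log axis) of 3 kinesin classes, their partner lists and 4 cell marker lists in each library, filled for SCI and open for sham, with the marker shape giving the replicate number. Dividing-cell kinesins lie at 75.8 to 106 FPKM in SCI and 7.06 to 7.63 FPKM in sham, and transport kinesins at 1010 to 1200 FPKM in SCI and 1860 to 1900 FPKM in sham.

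Kinesins tied to the cilium, the hair-like organelle that ependymal cells beat to move cerebrospinal fluid, went in no common direction. Of 4 tested, 2 were called lower and none higher, where 30.8% of all genes tested were called lower. Kif19a, a kinesin-8 that trims the tips of motile cilia, was at 2.27, 1.54 and 2.70 FPKM in SCI, against 13.46, 5.85 and 11.32 in sham. Its log2 change of −1.77 (SE 0.29, limma adjusted p = 0.0018) was the most negative of all members and the rank 42 from the bottom of 17435 genes. Kif6, of the kinesin-9 family, was at 1.10, 0.66 and 1.09 FPKM in SCI, against 2.13, 1.75 and 1.78 in sham (log2 change −0.57, adjusted p = 0.017), and its call ended without sham replicate 1 (−0.51, adjusted p = 0.061). Kif9, of the same family, did not pass, at 2.22 to 3.19 FPKM in SCI and 1.96 to 2.83 FPKM in sham (log2 change 0.10, and −0.0079 under quantile normalization). Kif7, a kinesin-4 that regulates Hedgehog signalling at the cilium tip, did not pass, at 1.58 to 1.98 FPKM in SCI and 1.62 to 2.00 FPKM in sham (log2 change 0.04, and −0.05 under quantile normalization). Kif24 and Kif27 were too low to test, at 0.93 to 1.22 and 0.56 to 0.76 FPKM in SCI, against 0.40 to 0.50 and 0.64 to 0.79 FPKM in sham. With no filter, Kif24 was called higher (log2 change 0.48, adjusted p = 0.020). Genes of the ependymal cilium had 2 of 5 tested members called lower, a share near the 30.8% of all genes, namely Foxj1, the master factor of motile cilia, and Ccdc153, with summed levels of 30.3, 26.1 and 28.6 FPKM in SCI, against 44.3, 36.7 and 38.9 in sham.

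Of the other members, 4 were called lower, and none higher, among 6 tested, where 30.8% of all genes were called lower. The count was 2 without sham replicate 2 or without sham replicate 3. Kif21a, a kinesin-4 of neurons that restrains microtubule growth, was at 65.09, 44.62 and 75.61 FPKM in SCI, against 107.52, 112.39 and 110.15 in sham (log2 change −0.86, SE 0.18, limma adjusted p = 0.0052). Kif26b, a kinesin-11 without motor activity, was at 2.73, 2.07 and 2.36 FPKM in SCI, against 4.40, 4.71 and 4.19 in sham (log2 change −0.69, SE 0.12, adjusted p = 0.0026). Kif2a, a kinesin-13 that trims microtubules in axon branches as well as in spindles, was at 24.60, 21.13 and 23.14 FPKM in SCI, against 26.86, 28.15 and 29.00 in sham (log2 change −0.28, adjusted p = 0.024). Kif21b was at 11.78, 11.84 and 12.89 FPKM in SCI, against 15.25, 14.53 and 13.91 in sham (log2 change −0.24, adjusted p = 0.038). Both of the last calls were marginal. That of Kif2a ended without sham replicate 2 or 3 (adjusted p = 0.070 and 0.086). That of Kif21b held with SCI replicate 3 left out (adjusted p = 0.043) and was lost with any of the other 5 libraries left out (adjusted p of 0.052 to 0.13) and under median-ratio scaling (log2 change −0.15, adjusted p = 0.14). Kifc3 (−0.16) and Kif26a (0.29) did not pass. Kif12 and the antisense transcript Kif16bos were listed at 0 in all 6 libraries, and Kif28 reached no more than 0.05 FPKM in any.

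Within 5 families a dividing-cell motor and a relative of another role can be set side by side. The pairs were picked after their values were seen, and 4 of the 5 dividing-cell members passed the filter through the SCI libraries alone, so the intervals are a description. In kinesin-13, Kif2c had a 95% interval of 2.43 to 3.21 and Kif2a one of −0.47 to −0.08, with the Kif2a call lost without sham replicate 2 or 3. In kinesin-8, Kif18b had an interval of 2.34 to 3.10 and Kif19a one of −2.44 to −1.10. In kinesin-4, Kif4 had an interval of 2.14 to 2.86 and Kif21a one of −1.27 to −0.44. In kinesin-3, Kif14 had an interval of 0.93 to 1.68 and Kif1a one of −0.96 to −0.39, and in kinesin-14, Kifc1 had one of 2.11 to 2.61 and Kifc2 one of −1.28 to −0.80. Other relatives did not follow these pairs. Kif1c of kinesin-3 was called higher like Kif14, and Kif13a and Kif16b of kinesin-3, Kif7 of kinesin-4 and Kifc3 of kinesin-14 did not pass.

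Some members changed their place in the order by level. Kif19a had rank 36 of 45 in SCI and rank 20 in sham, and Kif11 rank 21 in SCI and rank 35 in sham. In SCI, Kif5a (319 ± 25.2 FPKM) was followed by Kif1a (150 ± 22.8), Kif5b (145 ± 6.85), Klc1 (139 ± 22.5) and Kif5c (133 ± 18.5) (SD, n = 3 in each group). The SD ranges of these 4 overlapped, but Kif1a lay above Klc1 and Kif5c in each SCI library. These 4 genes were not tested against each other. In sham, the most abundant after Kif5a (618 ± 17.5 FPKM) were Kif5c (281 ± 9.04), Kif1a (239 ± 12.7), Klc1 (232 ± 1.92) and Kif5b (209 ± 10.6). The SD ranges of Kif1a and Klc1 overlapped there. Kif20a, the most abundant of the dividing class in SCI at 16.8 ± 3.84 FPKM, had rank 18 of 45 there and rank 31 in sham. As a share of all kinesin FPKM, the dividing class made up 5.26%, 7.43% and 4.46% in SCI, against 0.293%, 0.283% and 0.302% in sham.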

How the data were processed

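RNA-seq of whole pieces of cord gave 6 libraries, 3 SCI and 3 sham, grouped by their titles. The deposited unit is FPKM per gene, as the file headers say. StringTie 1.3.4d, HISAT2 2.0.4 and cutadapt 1.9 are listed, per the submitters' processing notes, along with edgeR, DESeq2 and UMI-tools and the build mm9, and the notes give no roles. The coordinates in the files are those of GRCm38: positions were the same for 91.7% of the 36502 identifiers also found in GENCODE M21 (36 of the 45 members). FPKM hold no read counts, so depth is unknown and no counting interval is given; a gene that takes a large share of a library lowers all others.

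From these values log2(FPKM + 1) was fitted with limma 3.58.1 (mean-variance trend, group as the only term) in R 4.3.3 across the 17435 genes that reached 1 FPKM in 3 or more libraries, two-sided, with Benjamini-Hochberg adjustment. The fit was checked on simulated data. Ratios between genes were tested with an exact permutation test. Every member that passed this filter was named. Of the other lists the 2 most changed genes and up to 2 that did not pass were to be named, and Cenpe, Racgap1, Kifap3, Kifc5b, Sh2d5, Ercc2, Scn10a, Avil, Foxj1 and Ccdc153 were added after their values were seen. The members, the lists and their roles were chosen with earlier results of these data known. Alternatives were another pseudocount, no filter, 3 other scalings, each library left out and a replicate block. Promoters came from RefSeq, and the search in the bases after the start was added later.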

Additional observations from a re-analysis of the deposited data

How the results depend on the processing

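Over 40 tested members and 12 alternative settings, 456 of 480 values kept their direction and their side of the threshold, 16 calls were lost and 1 gained. All 12 dividing-cell kinesins and the 3 called among 4 light chains were called under each of the 12 settings. The number of transport kinesins called lower was 9 to 10 with 1 library left out. With 1 library left out, the ciliary count of 2 called among 4 tested was 1 to 2. The count of 4 other kinesins called among 6 tested was then 2 to 4. Directions turned round only in members that did not pass: Kif7 (−0.05 under quantile normalization and −0.00029 without sham replicate 3), Kif9 (−0.0079 under quantile normalization and −0.02 to 0.21 with 1 library left out), Kif13a (0.01 under median-ratio scaling) and Kif16b (−0.08 under quantile normalization and −0.003 to 0.08 with 1 library left out). The Kif1a/Kif1b log2 ratio, 0.04 in all libraries, was −0.0013 to 0.11 with 1 library left out. The cause of these moves was not tested.

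Samples with the same replicate number did not deviate together (r of −0.008, −0.039 and 0.022, with 2 of 6 samples closest to their own number). No pairing by number was seen, though 3 libraries in each group cannot exclude it. With the replicate block the count of other kinesins called fell to 2, with Kif21b and Kif2a no longer called, and 9443 genes were called in place of 10024. Without counts, low values such as those of the dividing-cell kinesins in sham carry an unknown counting error.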
